A study of Mus musculus with 12 samples.

Results

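The comparison asked whether the response of dendritic cells to dead cells differs when the dead cell receptor DNGR-1 is missing. It was measured as a difference of differences over all 12 arrays of the study: dead cells minus untreated in Clec9a gfp/gfp cells, less the same step in wild-type (WT) cells. The value was computed for each of the 23238 rows (transcript clusters) of the array table. The members described here are 281 known genes of dendritic cell activation in 11 lists, and 233 of them had a row that carries a single gene symbol. A list of Syk pathway genes, which holds the signalling parts that DNGR-1 is known to use, was read out beside them.

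The cells were CD8α+-like dendritic cells from mouse bone marrow (strain C57BL/6) that had been cultured for 10 days with 100 ng/ml of Flt3 ligand, a growth factor for dendritic cells. The 4 groups of 3 arrays were untreated WT cells, WT cells after 5 h with dead cells, untreated Clec9a gfp/gfp cells, and Clec9a gfp/gfp cells after 5 h with dead cells. The dead cells had been exposed to 240 mJ/cm2 of UVC and kept for a further 24 h, and after the co-culture a sort kept cells with high CD24, low CD11b and no B220. Untreated cells were labelled 0 h, so 5 h of further culture is part of every dead cell response here, in both genotypes alike. The gfp allele was carried on both chromosomes and in every cell of the culture, and neither the source of the dead cells nor separate cultures or animals behind the 3 replicates were given. The p-values therefore measure only the spread between these samples, which may be technical.

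DNGR-1 is a C-type lectin found on type 1 conventional dendritic cells (cDC1), the dendritic cells that present antigen from dead cells to CD8+ T cells. It binds actin filaments that are laid bare when a cell loses its membrane, and signals through the kinase Syk from a single tyrosine motif in its tail. It is known for steering the engulfed cargo towards cross-presentation rather than for switching on maturation genes, and Dectin-1, a close relative encoded by Clec7a, does both for fungal glucan.

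Clec9a, the gene of DNGR-1, read 2646, 2648 and 2581 in untreated WT cells and 1496, 1372 and 1471 in WT cells with dead cells, in intensity units of the table. In Clec9a gfp/gfp cells the arrays read 4.16, 0.00864 and 3.88 without and 1.38, 3.99 and 0.59 with dead cells. The 6 arrays labelled Clec9a gfp/gfp were all near 0 and far below every WT array. Of 21 cDC1 marker genes 17 had a single-symbol row, and Clec9a in the gfp/gfp groups was the only one with a group mean under 16. Averaged over genotypes, 10 of the 17 fell at least 2-fold with dead cells and 0 rose that far. Their summed level was 69502 to 75036 in untreated WT and 62434 to 71121 in untreated Clec9a gfp/gfp cells, and the lower sums with dead cells are given below. Xcr1, the chemokine receptor of cDC1, Irf8, their lineage factor, and Naaa were bright in all 4 groups, and the difference in response was 0.01 (95% interval -0.31 to 0.33) for Xcr1, 0.02 (-0.31 to 0.35) for Irf8 and -0.09 (-0.33 to 0.15) for Naaa. Cd24a and Itgax had no single-symbol row. Median intensity was 93.6 to 101 on untreated arrays and 77.9 to 85.9 on arrays with dead cells, and 11.5% to 15.2% of rows lay below 16, the constant added before log2. Markers of other cells were present too. The summed level of 16 macrophage markers was 25509 to 35800 in untreated WT and 30170 to 31943 in untreated Clec9a gfp/gfp cells, and 4604 to 5426 and 4220 to 5098 with dead cells. That of 13 neutrophil markers was 8377 to 14323 in untreated WT and 1971 to 21511 in untreated Clec9a gfp/gfp cells, and 739.6 to 971 and 969 to 1025 with dead cells. No marker of these lists had a mean under 16 in an untreated group. The sums of both lists overlapped between genotypes in each state, as did those of stromal, cDC2, lymphoid and mast or erythroid markers. The exceptions were sums with dead cells. That of the 17 cDC1 markers was 30713 to 32117 in WT and 28501 to 29969 in Clec9a gfp/gfp cells. It includes Clec9a, the altered gene, at 1372 to 1496 in these WT arrays and 0.59 to 3.99 in the others. This step is larger than the space between the sums, so they lie apart only with Clec9a included. The sum of 7 pDC markers was 3924 to 4132 in WT and 4184 to 4242 in Clec9a gfp/gfp cells. What part these cells have in the responses was not tested, and in sorted bulk cells a change in the share of a cell type cannot be told apart from a change in RNA per cell.

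Every difference below is Clec9a gfp/gfp minus WT on the log2(intensity + 16) scale, so a negative value means a smaller rise, or a larger fall, in cells without DNGR-1. A difference of -1 means that the fold change was 2-fold smaller. Since a p-value above its threshold does not show that responses are alike, each gene was also tested against stated limits. A gene was called alike within 2-fold, or within 1.5-fold, when both one-sided tests in limma placed its difference inside the limits at an adjusted p under 0.05 over all rows. A gene that passed neither this test nor the test for a difference is called undecided. The question was put to genes that responded, meaning an average over genotypes of at least 2-fold with an adjusted p under 0.05.

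One row of 23238, or 0.0043%, passed the test for a difference in response, and none of the 233 activation genes did. That row was Clec7a, which encodes Dectin-1 and belongs to the Syk list. At an unadjusted p under 0.05 limma passed 997 rows, which is 4.29% of the table, with 2.49% lower and 1.8% higher in Clec9a gfp/gfp cells. Of the 233 activation genes 15 passed it, 12 lower and 3 higher.

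Of the activation genes 147 responded, 131 upwards and 16 downwards, where 22.7% of all rows responded, 3.55% upwards and 19.2% downwards. All 147 were called in the same direction in each genotype taken alone. They were selected by the average over both genotypes, which favours such agreement, so this count is no separate evidence of likeness. The responses of 132 (89.8%) were alike within 2-fold and those of 56 (38.1%) within 1.5-fold. The second count was 34 without untreated WT replicate 1, 36 without untreated Clec9a gfp/gfp replicate 1 or WT dead cell replicate 2, and 99 of 143 with a pseudocount of 64. Over all responding rows, named or not, the shares were 90.3% and 50.3%, and over all 23238 rows 79.6% and 42%. Among the 4333 responding rows with a single gene symbol, the kind from which the activation genes were taken, they were 94.4% and 55%, above the activation genes at both limits. The difference between these shares was not tested. The remaining 15 responding genes were undecided. Among the 86 measured activation genes without a 2-fold response 81 were alike within 2-fold and 5, Slamf1, Gbp7, Il10, Egr3 and Spry2, were undecided. Of all rows without such a response 13729 of 17956 were alike within 2-fold, and of those with a single gene symbol 9795 of 10606.

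**Figure D1:**
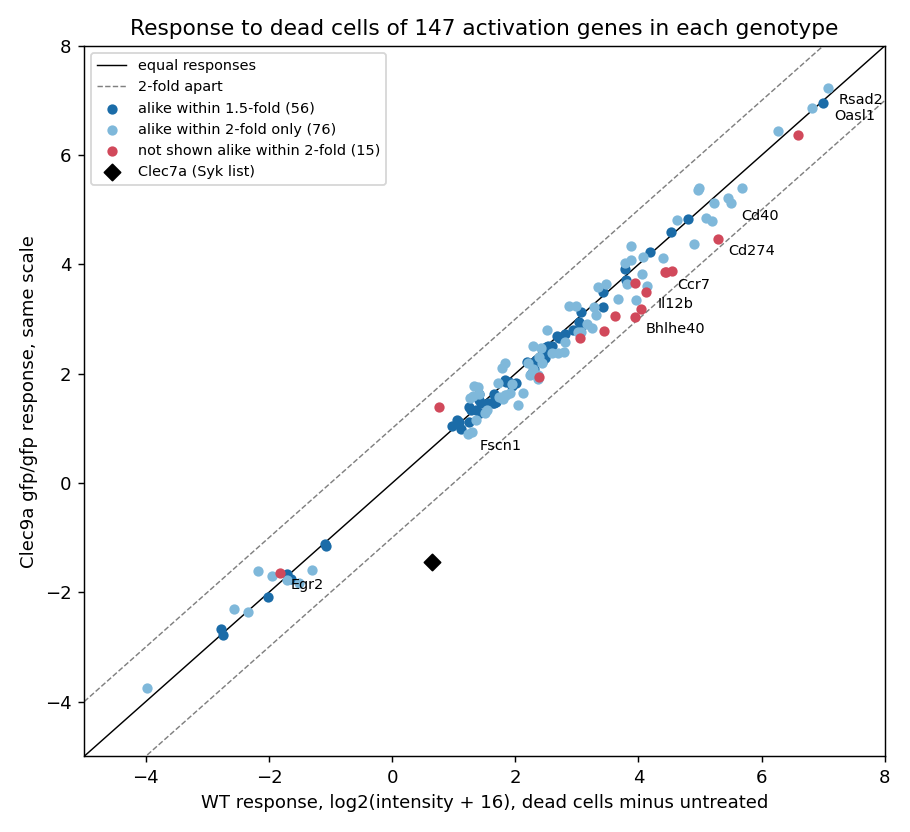
Response to dead cells in WT (horizontal) and Clec9a gfp/gfp cells (vertical), both as log2(intensity + 16) with dead cells minus untreated, for the 147 responding activation genes and for Clec7a. The solid line marks equal responses and the dashed lines a 2-fold difference; the activation genes lie between the dashed lines, 56 alike within 1.5-fold, 76 within 2-fold only and 15 undecided, while Clec7a lies outside them.

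A 2-fold limit could hide the loss of a small response, so it was also tested how much of the WT response was kept. On the log2 scale, 91.4% of responding rows kept over 50% of the WT response (adjusted p under 0.05, one-sided). So did 4121 of the 4333 responding rows with a single gene symbol. Of the 147 genes, 143 did. The other 4 were Fscn1, which encodes the actin-bundling protein fascin (kept 72.2%, adjusted p = 0.138), the cytokine genes Il1a (72.3%, 0.13) and Lta (87.2%, 0.0969), and the transcription factor gene Egr2 (90.0%, 0.0777). Over 80% was kept by 13 genes, where 2.65% of responding rows passed this test. Of these 13, 9 were interferon response genes (Rsad2, Oasl1, Oasl2, Isg20, Irf7, Mx2, Cmpk2, Ifih1 and Parp14), and the others were Cd40, Il15, Cxcl10 and Hspa1a.

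Differences below 0 were common among the genes that rose, but not more so than elsewhere. Of the 131 activation genes that rose, 86 (65.6%) had the smaller rise in Clec9a gfp/gfp cells, and of all 826 rows that rose, 544 (65.9%) did. The median difference was -0.13 for these members and -0.10 for all rising rows. Of the 16 that fell, 7 had the smaller fall, and of all 4456 falling rows 1715 (38.5%) did. An unadjusted p under 0.05 was reached by 12 of the 147 (8.16%) and by 206 of the 5282 responding rows (3.9%). The former mostly rose and the latter mostly fell, so these shares are not like for like.

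The results are given next by the role of the genes, beginning with the interferon response, which held the 3 largest rises. Type I interferon acts on interferon-stimulated response elements in the promoters of its target genes. Of 32 measured interferon response genes 29 rose at least 2-fold, 14 alike within 1.5-fold and 27 alike within 2-fold. The median difference of the 32 was 0.04, and that of all rows -0.02.

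Rsad2, which encodes the antiviral enzyme viperin, read 39.6, 42.8 and 58.7 in untreated WT cells, 7937, 8289 and 9163 in WT cells with dead cells, 33.6, 47.2 and 37.4 in untreated Clec9a gfp/gfp cells and 8788, 8942 and 7292 in Clec9a gfp/gfp cells with dead cells. Both genotypes rose from near the dim end of the table to near its top, and the genotypes overlapped in each state. The log2 rise was 7.08 in WT and 7.24 in Clec9a gfp/gfp cells, a difference of 0.16 ± 0.20 (SE; 95% interval -0.28 to 0.60), alike within 2-fold (adjusted p = 0.00166, limma).

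Oasl1, a translational regulator of the interferon response, read 66.4, 59.6 and 82.1 and then 10866, 10757 and 11007 in WT cells, and 67.1, 75 and 69.7 and then 11080.3, 10399.9 and 10599 in Clec9a gfp/gfp cells. The replicates lay close together and the genotypes overlapped in each state. The difference was -0.05 ± 0.14 (-0.37 to 0.26), alike within 1.5-fold (adjusted p = 0.0167). Ifit2, an interferon-induced RNA-binding protein gene, rose by 6.81 and 6.87, and its wider interval of -0.88 to 0.99 was inside 2-fold only.

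The promoters of these 3 genes, the largest responses among genes alike within 2-fold that have an entry in the RefSeq promoter table, are shown beside those of Clec7a and Cd274, which had the smallest p-values for a difference. Each line gives the 200 bases before the transcription start in RefSeq's GRCm38.p6 assembly, 5′ to 3′ on the gene's strand, with capitals for a match on either strand to GAAA, any 2 bases and GAAA, the repeat of an interferon-stimulated response element, or to GGGA, any 2 bases and TTCC, an NF-kB type site. Over 200 bases, 2.65% of the 27025 genes in the table have a match to the first and 1.18% to the second.
Rsad2: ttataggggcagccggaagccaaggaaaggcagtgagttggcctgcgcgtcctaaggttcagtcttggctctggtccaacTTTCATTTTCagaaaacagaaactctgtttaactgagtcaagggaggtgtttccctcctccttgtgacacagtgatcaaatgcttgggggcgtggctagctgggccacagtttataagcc
Oasl1: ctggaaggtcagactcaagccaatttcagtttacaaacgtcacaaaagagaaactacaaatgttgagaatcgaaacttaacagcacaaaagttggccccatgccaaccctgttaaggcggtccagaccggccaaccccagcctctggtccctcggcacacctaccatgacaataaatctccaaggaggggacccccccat
Ifit2: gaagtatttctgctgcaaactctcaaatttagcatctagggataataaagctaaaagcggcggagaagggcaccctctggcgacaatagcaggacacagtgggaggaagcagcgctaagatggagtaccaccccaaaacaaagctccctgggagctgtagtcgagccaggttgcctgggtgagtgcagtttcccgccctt
Clec7a: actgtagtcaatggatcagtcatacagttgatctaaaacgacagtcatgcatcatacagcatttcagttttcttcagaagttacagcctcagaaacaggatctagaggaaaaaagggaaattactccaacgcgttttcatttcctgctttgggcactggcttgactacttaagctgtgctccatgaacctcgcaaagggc
Cd274: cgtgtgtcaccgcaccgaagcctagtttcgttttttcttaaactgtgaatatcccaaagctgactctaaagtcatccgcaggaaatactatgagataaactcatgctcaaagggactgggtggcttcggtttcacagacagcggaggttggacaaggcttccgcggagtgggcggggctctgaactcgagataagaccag
The Rsad2 window (chr12:26456453-26456652, minus strand) held a match to the first motif on the opposite strand, which starts 120 bases before the start site. The Oasl1 (chr5:114923040-114923239, plus strand), Ifit2 (chr19:34550494-34550693, plus strand), Clec7a (chr6:129472780-129472979, minus strand) and Cd274 (chr19:29367238-29367437, plus strand) windows held neither in these letters. A match is a run of letters and no measure of binding. For Ifit2 and Clec7a the table holds 2 promoters, neither with a match, and the first is shown. Bhlhe40 and Csf2rb, next in order of p, are named only.

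The other interferon response genes alike within 1.5-fold were Oasl2, Isg20, Irf7, Ifih1, Dhx58, Stat2, Ifi35, Bst2, Trim30a, Parp9, Parp14, Slfn5 and Tor3a. Irf7, the transcription factor that amplifies type I interferon, rose by 4.54 in WT and 4.59 in Clec9a gfp/gfp cells, with an interval of -0.25 to 0.37 for the difference. Ifih1, which encodes the RNA sensor MDA5, rose by 3.78 and 3.91 (interval -0.25 to 0.51). Stat2, which carries the interferon signal, rose by 2.60 and 2.50 (-0.38 to 0.18). Sensors, signal carriers and effectors each had genes inside the narrow limit. The genes alike within 2-fold only were Rsad2, Ifit2, Mx1, Mx2, Cmpk2, Ddx58, Gbp3, Gbp5, Irgm1, Zbp1, Rtp4, Slfn1 and Oas2. Cmpk2, a mitochondrial nucleotide kinase gene next to Rsad2, had the largest positive difference of the list, 0.39 ± 0.23 (-0.12 to 0.89). Ifitm3, an inhibitor of virus entry that did not reach a 2-fold response, had the smallest p of the list. It read 3506, 2455 and 2887 in untreated WT and 3560.2, 3859 and 3991 in untreated Clec9a gfp/gfp cells, and 5826, 5765 and 6412 and 5911, 5802 and 6163 with dead cells. Its difference of -0.39 (-0.77 to -0.01) was alike within 2-fold. Gbp7, below a 2-fold response as well, was undecided at 0.26 (-0.59 to 1.10).

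The undecided interferon response genes were Ifit1 and Gbp2. Ifit1, whose protein binds foreign RNA caps, read 3.6, 27.6 and 23.6 in untreated WT and 24.6, 13.4 and 45.3 in untreated Clec9a gfp/gfp cells, and 2873, 3346 and 3077 and 3572, 3551 and 3172 with dead cells. The arrays with dead cells were close together, while the untreated arrays were dim and scattered in both genotypes. The difference of -0.22 ± 0.43 (-1.18 to 0.73) set against a rise of 6.59 in WT cells left 96.6% of the log2 response, and the test for over 50% passed (adjusted p = 4.8e-05). Gbp2, a guanylate-binding protein gene, read 155, 165 and 273 in untreated WT and 467, 119 and 209 in untreated Clec9a gfp/gfp cells, where 1 array was above all WT arrays and another below them. Its difference of -0.28 had an interval of -1.44 to 0.88, the widest among the responding interferon genes.

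Costimulatory genes encode the ligands and receptors by which dendritic cells activate or restrain T cells. Of 16 measured, 12 rose and 1 fell at least 2-fold, and 12 of the 13 were alike within 2-fold. Those alike within 1.5-fold were Cd86, Icam1, Cd200 and Cd48. Those alike within 2-fold only were Cd40, Cd80, Pdcd1lg2, Icosl, Cd70, Tnfsf9, Tnfrsf9 and Tnfsf15.

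Cd40, the receptor for the T cell help signal CD40L, read 93, 103 and 93.8 untreated and 5403, 4743 and 5056 with dead cells in WT, and 119, 139 and 112 and 4738, 4694 and 5014 in Clec9a gfp/gfp cells. The untreated Clec9a gfp/gfp arrays all lay above the WT ones, and with dead cells the genotypes overlapped. The rise of 5.50 in WT was 5.12 in Clec9a gfp/gfp cells, a difference of -0.38 ± 0.13 (-0.68 to -0.08), alike within 2-fold (adjusted p = 0.00102) and past the test for keeping over 80%. Cd86, a ligand of CD28, differed by -0.17 (-0.48 to 0.14), and Cd80, the other CD28 ligand, by -0.40 (-0.81 to 0.00). Pdcd1lg2, the gene of the inhibitory ligand PD-L2, was called alike within 2-fold at an adjusted p of 0.0422, although its 95% interval of -1.05 to 0.25 crossed the limit. It read 21, 29.6 and 12.2 in untreated WT and 25.9, 44.5 and 34.3 in untreated Clec9a gfp/gfp cells, and 1355, 1258 and 1343 and 1717, 1091 and 1424 with dead cells. Tnfrsf9, the gene of the receptor 4-1BB, differed by -0.54 (-1.01 to -0.07), and Slamf1, without a 2-fold response, was undecided at 0.34 (-0.43 to 1.11).

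Cd274, the gene of the inhibitory ligand PD-L1, was the undecided costimulatory gene and had the smallest p of all activation genes. It read 138, 131 and 155 in untreated WT and 280.0, 285 and 249 in untreated Clec9a gfp/gfp cells, and 6276, 5848 and 6227 and 6673, 6285 and 6091 with dead cells. All 3 untreated Clec9a gfp/gfp arrays were above all untreated WT arrays, and the levels reached with dead cells overlapped. The rise was 5.29 in WT and 4.47 in Clec9a gfp/gfp cells, a difference of -0.82 ± 0.13 (-1.10 to -0.53), which passed neither the test for a difference (adjusted p = 0.375) nor that for likeness within 2-fold (adjusted p = 0.102). The interval lies wholly below 0 and reaches just past 2-fold, yet over 50% of the WT response was kept (adjusted p = 3.35e-06).

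**Figure D2:**
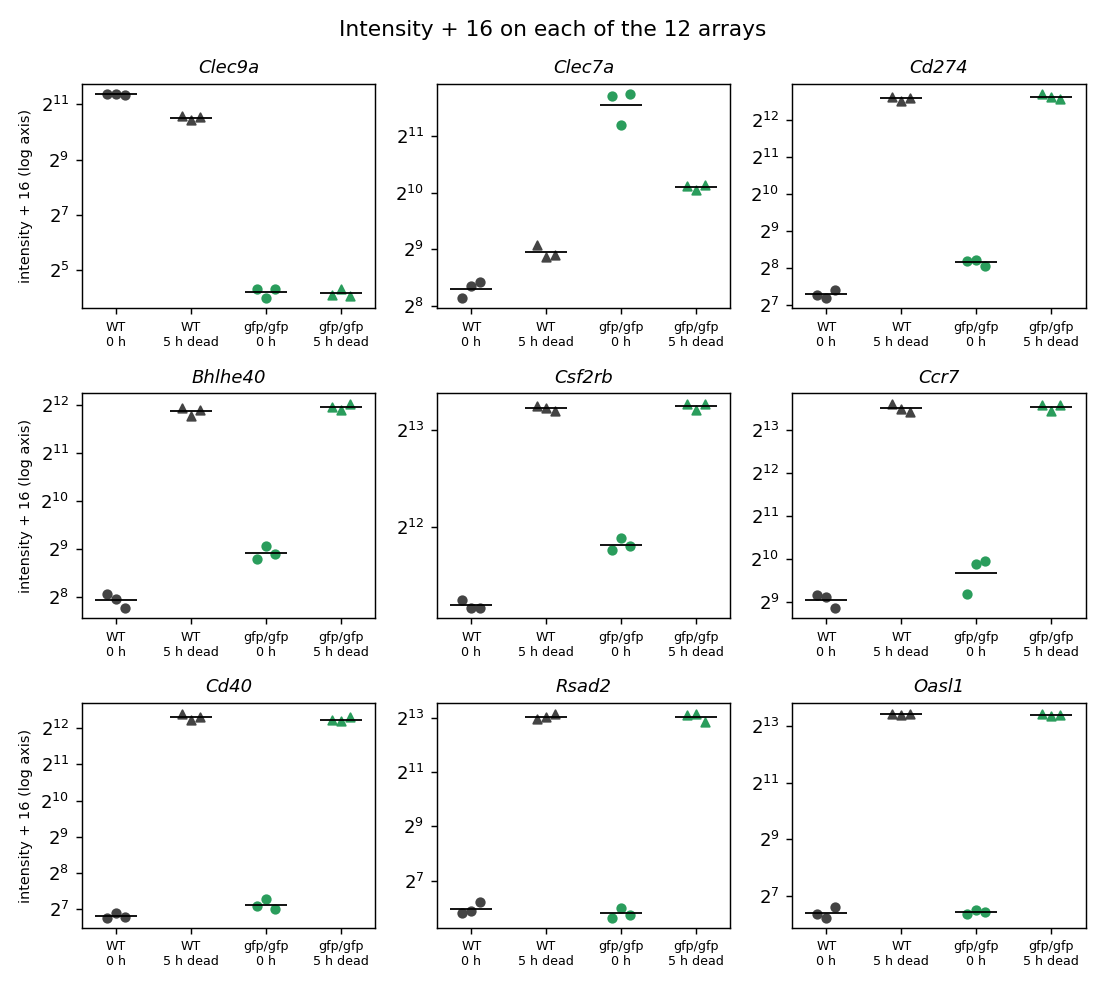
Intensity + 16 on a log axis for 9 genes on each of the 12 arrays, by genotype (grey WT, green Clec9a gfp/gfp) and treatment (circles untreated, triangles with dead cells), with a bar at the mean of the log2 values. The genotypes lie apart on the untreated arrays and overlap with dead cells for Cd274, Bhlhe40 and Csf2rb, they lie apart in both states for Clec7a, and Rsad2 and Oasl1 overlap in both.

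Maturation genes, which accompany migration to lymph nodes and the mature state, held the largest number of undecided genes. Of 23 measured, 20 rose at least 2-fold; 15 were alike within 2-fold, 6 of them (Cd83, Stat5a, Ly75, Etv3, Cdkn1a and Gpr132) within 1.5-fold, and 5 were undecided. The median difference in response over the 23 was -0.25, with 21 below 0. Over all 23238 rows it was -0.02, with 12405 below 0, and over the 826 rows that rose at least 2-fold it was -0.1, with 544 below 0. The median genotype difference in level was 0.32 untreated and 0.02 with dead cells in this list, and 0.0038 and -0.01 over all rows. A median difference in response below 0 was not particular to maturation genes. It was -0.24 for costimulation (11 of 16 below 0), -0.18 for NF-kB regulators (20 of 26) and -0.10 for class I genes (15 of 16). Among the 11 lists it was above 0 only for interferon response (0.04), chemokine (0.07) and activation transcription factor genes (0.01).

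Bhlhe40, a transcription factor gene that restrains interleukin-10, read 250.3, 232 and 202 in untreated WT and 425, 519 and 457 in untreated Clec9a gfp/gfp cells, against 3914, 3467 and 3790.3 and 3959, 3777 and 4163 with dead cells. Its pattern over the groups was that of Cd274: apart when untreated, overlapping with dead cells. The difference in response was -0.89 ± 0.15 (-1.23 to -0.56, adjusted p = 0.527), and 77.3% of the WT log2 response was kept.

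Ccr7, the chemokine receptor that guides mature dendritic cells into lymph nodes, read 562, 539 and 452 in untreated WT and 564, 936 and 984 in untreated Clec9a gfp/gfp cells. With dead cells it was among the brightest rows at 12518, 11478 and 10969 and 12254, 11164 and 12170.0. The lowest untreated Clec9a gfp/gfp array lay just above the highest WT array and the other 2 well above it, and with dead cells the genotypes overlapped. The rise was 4.45 in WT and 3.85 in Clec9a gfp/gfp cells, a difference of -0.60 ± 0.26 (-1.17 to -0.03).

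The remaining undecided maturation genes were Il4i1, an amino acid oxidase gene, Lad1, which encodes a filament-anchoring protein, and Eno2, a glycolytic enzyme gene. Their differences were -0.56 (-1.21 to 0.09), -0.85 (-1.72 to 0.01) and -0.66 (-1.33 to 0.02), each interval wide enough to hold both 0 and a 2-fold loss. Lad1 read 36.6, 28.8 and 45 in untreated WT and 37.4, 90.5 and 66.2 in untreated Clec9a gfp/gfp cells, with overlap, and 1194, 635 and 796 and 708, 573 and 808 with dead cells. Il4i1 read 87.7, 85.9 and 108 and 120.1, 175 and 159 untreated, where all Clec9a gfp/gfp arrays were higher, and 3245, 1932 and 2031 and 2521, 2020.5 and 2698 with dead cells, where the genotypes overlapped. Eno2, at 12.7, 11.5 and 10.7 and 18.6, 33.8 and 15.1 untreated and 386, 212 and 279.5 and 254, 209 and 274 with dead cells, had the same order.

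Csf2rb encodes the signalling chain that the GM-CSF receptor shares with other cytokine receptors. Among the activation genes it had the smallest p for a difference after Cd274 and Bhlhe40, and it was alike within 2-fold. It read 2395, 2269 and 2271 in untreated WT and 3447, 3749 and 3558 in untreated Clec9a gfp/gfp cells, and 9766, 9581 and 9363 and 9855, 9436 and 9904 with dead cells. The untreated groups stood apart and the treated ones overlapped. Its difference of -0.60 ± 0.10 (-0.84 to -0.37) had an adjusted p of 0.562 for a difference and of 0.0031 for likeness within 2-fold. Likeness within 1.5-fold was not shown (adjusted p = 0.604). Mice have a close copy, Csf2rb2, and whether the probes tell the copies apart was not tested. Among the other genes of the list alike within 2-fold, the adaptor gene Traf1 had a difference of -0.61 (-0.93 to -0.29) and Stat4, which carries the interleukin-12 signal, of -0.48 (-0.83 to -0.13). Il2ra, the alpha chain of the interleukin-2 receptor, had the largest rise of the list, 5.10 in WT and 4.86 in Clec9a gfp/gfp cells (-0.71 to 0.22). Cd83, a surface marker of mature dendritic cells, differed by -0.03 (-0.30 to 0.24), Adcy6, an adenylate cyclase gene, by -0.40 (-0.80 to -0.00), and Fscn1, with a rise of 1.24 in WT, by -0.34 (-0.81 to 0.12).

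**Figure D3:**
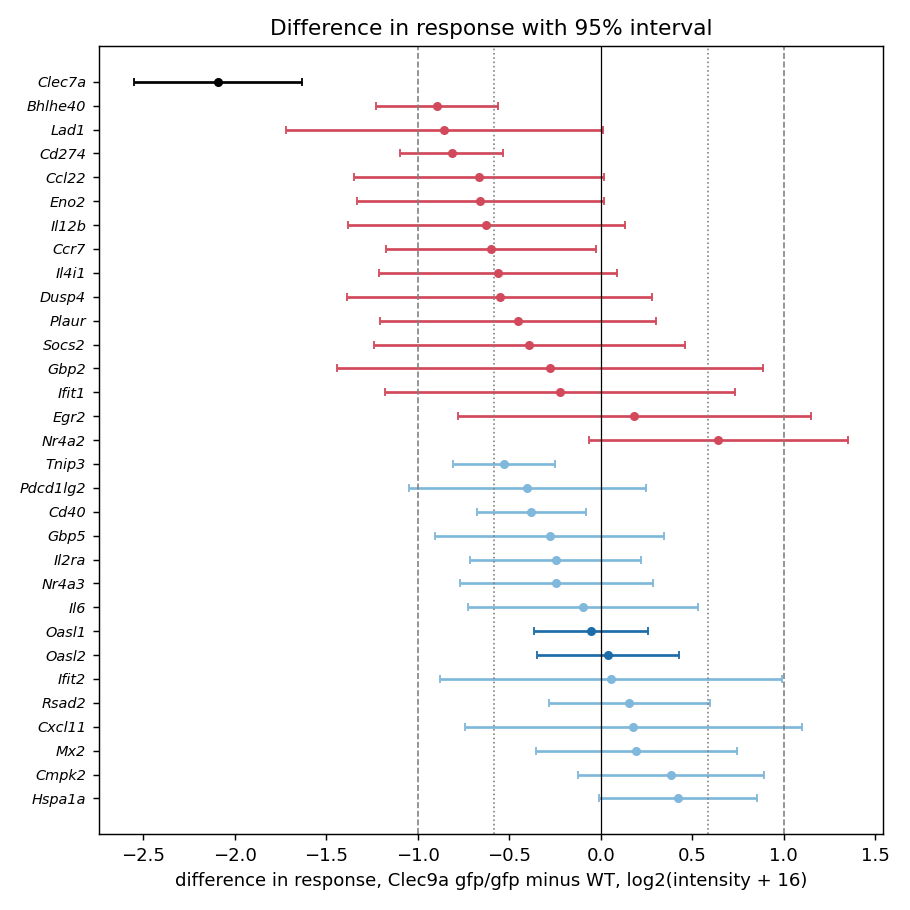
Difference in response (Clec9a gfp/gfp minus WT, log2 scale) with its 95% interval for Clec7a (black), the 15 undecided genes (red) and the 15 largest rises among the genes called alike (dark blue within 1.5-fold, light blue within 2-fold). Dashed lines mark 2-fold and dotted lines 1.5-fold; 13 of the 15 undecided estimates lie below 0, and only Clec7a has its whole interval beyond 2-fold.

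Of 23 measured cytokine genes 10 rose at least 2-fold, 9 of them alike within 2-fold and 2 (Ebi3 and Lif) within 1.5-fold. Il6, the gene of an inflammatory cytokine, read 12, 18.1 and 18.7 in untreated WT and 34.6, 15.6 and 16.7 in untreated Clec9a gfp/gfp cells, and 1039.7, 1231 and 1305 and 1181, 1629 and 1122 with dead cells. It rose by 5.23 and 5.13, with overlap in both states, and the interval of the difference was -0.73 to 0.53. Il15, a cytokine for CD8+ T and NK cells, differed by 0.25 (-0.25 to 0.75), and Tnf by 0.22 (-0.49 to 0.94). Vegfa, Il1a, Il1rn and Lta were the others alike within 2-fold. Ifnb1, the gene of interferon beta, changed by 0.70 in WT and 0.54 in Clec9a gfp/gfp cells, under the 2-fold needed to count as responding, and was alike within 2-fold (difference -0.16, -0.80 to 0.48). Il10, the gene of an inhibitory cytokine, did not respond 2-fold and was undecided at 0.52 (-0.05 to 1.09), and Inhba, an activin subunit, differed by -0.40 (-0.84 to 0.05).

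Il12b, the p40 subunit of interleukin-12 by which cDC1 drive type 1 immunity, was the undecided cytokine gene. It read 872, 620.3 and 665 in untreated WT and 728, 1636 and 1036 in untreated Clec9a gfp/gfp cells, and reached 13978, 11448 and 12824 and 12705, 11479 and 12864 with dead cells. The genotypes overlapped in both states, and the untreated Clec9a gfp/gfp arrays spread over a wider range than the WT ones. The difference was -0.63 ± 0.34 (-1.38 to 0.13).

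Chemokine genes went both ways in both genotypes. Of 18 measured 7 rose and 4 fell at least 2-fold, and 10 of the 11 were alike within 2-fold, 1 of them (Cxcl16) within 1.5-fold. The T cell-attracting chemokines Cxcl9, Cxcl10 and Cxcl11 differed by 0.07 (-0.64 to 0.78), 0.47 (-0.07 to 1.00) and 0.18 (-0.74 to 1.10), and the last 2 intervals crossed the 2-fold limit while the adjusted test passed. Cxcl2, a neutrophil chemokine, fell. It read 1405, 2037 and 1873 in untreated WT and 1484, 1526 and 1420.3 in untreated Clec9a gfp/gfp cells, and 423, 361 and 344 and 456, 476 and 485 with dead cells, where all Clec9a gfp/gfp arrays were the higher ones. Its difference of 0.56 ± 0.19 (0.15 to 0.98) is a smaller fall in Clec9a gfp/gfp cells, alike within 2-fold (adjusted p = 0.0282). The falls of the monocyte chemokines Ccl2, Ccl7 and Ccl12 were alike within 2-fold too. Ccrl2, an atypical receptor without a 2-fold response, differed by 0.38 (0.06 to 0.69), also alike within 2-fold.

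Ccl22, which attracts regulatory T cells, was the undecided chemokine. It read 294, 274 and 332 in untreated WT, 338, 635 and 381 in untreated Clec9a gfp/gfp cells, and 8196, 6501 and 7308 and 6236, 5606 and 8160.0 with dead cells. Untreated Clec9a gfp/gfp arrays were all higher, 1 of them much more than the other 2, and with dead cells the groups overlapped. The difference was -0.67 ± 0.31 (-1.35 to 0.02).

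NF-kB is the transcription factor that many danger receptors switch on, and its own regulators are among its targets. Of 26 measured 18 rose and 2 fell, and all 20 were alike within 2-fold, 13 within 1.5-fold. The latter were Nfkb2, Rel, Nfkbia, Nfkbib, Nfkbie, Nfkbiz, Tnfaip3, Tnip1, Birc3, Ikbkb, Map3k8, Gadd45b and Irak2. Rel, the NF-kB subunit that supports interleukin-12 genes, differed by 0.00 (-0.28 to 0.29), Nfkbia, the inhibitor IkB alpha, by 0.06 (-0.30 to 0.42), and Birc3, a ubiquitin ligase and inhibitor of cell death, by -0.00 (-0.30 to 0.30). Tnip3, an A20-binding inhibitor, read 246, 263 and 229 in untreated WT and 371, 365 and 366 in untreated Clec9a gfp/gfp cells, and 8617, 7570.4 and 7277 and 7646, 7895 and 8229 with dead cells. It was higher on all untreated Clec9a gfp/gfp arrays and overlapped with dead cells, and its difference of -0.53 ± 0.13 (-0.81 to -0.25) was alike within 2-fold (adjusted p = 0.0033). Gadd45b, a stress gene of this pathway, differed by -0.07 (-0.46 to 0.32), and Tnfaip2, a target of tumour necrosis factor, by -0.48 (-0.94 to -0.01).

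Activation transcription factors included early genes that had fallen by 5 h. Of 31 measured 9 rose and 4 fell, with 11 of the 13 alike within 2-fold and 4 (Fos, Junb, Myc and Stat3) within 1.5-fold. Nr4a3, an orphan nuclear receptor gene that follows antigen and danger signals, rose by 5.45 in WT and 5.21 in Clec9a gfp/gfp cells (-0.77 to 0.28). Batf, a partner of AP-1 and IRF factors, differed by -0.30 (-0.72 to 0.12) and Stat3, which carries the interleukin-10 signal, by -0.20 (-0.45 to 0.04). Irf1 and Irf4 differed by -0.23 (-0.68 to 0.21) and -0.13 (-0.79 to 0.54). The undecided genes were Nr4a2 and Egr2. Nr4a2, a relative of Nr4a3, read 1510.4, 1714 and 852 in untreated WT and 884, 828 and 1112 in untreated Clec9a gfp/gfp cells, and 2139, 2300.5 and 2190.4 and 2377, 2888 and 2234 with dead cells. One untreated WT array lay among the Clec9a gfp/gfp arrays and the other 2 above them, and with dead cells the genotypes overlapped. It rose by 0.75 (WT) and 1.40 (Clec9a gfp/gfp), and the difference had an interval of -0.07 to 1.35. Egr2, an early growth response gene, read 1131, 764 and 558 and 572, 518 and 780.3 untreated and 292, 198 and 160.3 and 154, 152 and 276 with dead cells, overlapping in both states. Its changes of -1.82 (WT) and -1.64 (Clec9a gfp/gfp) gave an interval of -0.78 to 1.15 for the difference. Egr3, below a 2-fold response, was undecided at 0.64 (-0.13 to 1.40).

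Feedback regulators, which damp cytokine and MAP kinase signals, had 22 measured genes, of which 11 rose and 2 fell. Of the 13, 10 were alike within 2-fold and 4 (Socs1, Spry1, Spred1 and Ptger4) within 1.5-fold. Socs1, an inhibitor of the interferon receptor, differed by 0.11 (-0.29 to 0.51), and Cish, a relative induced by STAT5, by -0.24 (-0.97 to 0.50). Dusp6, a phosphatase of the ERK kinases, had the largest fall of all activation genes, -3.98 in WT and -3.76 in Clec9a gfp/gfp cells (-0.23 to 0.66). The undecided genes were Socs2, the phosphatase gene Dusp4 and Plaur, the urokinase receptor gene, at -0.39 (-1.24 to 0.46), -0.55 (-1.38 to 0.28) and -0.45 (-1.21 to 0.30). Dusp4 read 120.2, 132 and 99.1 in untreated WT and 365, 223 and 141 in untreated Clec9a gfp/gfp cells, and 1479, 1695 and 1650.0 and 2446, 1933 and 1720.0 with dead cells. All Clec9a gfp/gfp arrays were higher than the WT arrays in both states. Socs2, with 1491, 1295 and 1483 in WT and 1021, 1199 and 1139 in Clec9a gfp/gfp cells, was lower on every Clec9a gfp/gfp array with dead cells, and its untreated arrays overlapped. Plaur read 65.3, 86.2 and 64.3 and 111, 145 and 121 untreated, higher on all Clec9a gfp/gfp arrays, and 387, 436 and 506 and 365, 808 and 481 with dead cells, with overlap. Plau, the gene of its ligand urokinase, did not respond 2-fold and differed by 0.50 (0.04 to 0.97). Dusp2, another MAP kinase phosphatase, differed by 0.35 (-0.04 to 0.75), and Spry2, without a 2-fold response, was undecided at 0.04 (-1.28 to 1.36).

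Of 18 measured genes of stress and metabolism 15 rose and all 15 were alike within 2-fold, 6 (Hmox1, Srxn1, Nqo1, Slc7a11, Pfkfb3 and Hk2) within 1.5-fold. Hmox1, the heme-degrading enzyme, differed by -0.01 (-0.41 to 0.38), and Pfkfb3, an activator of glycolysis, by -0.08 (-0.41 to 0.26). Slc7a11, the cystine transporter, read higher in Clec9a gfp/gfp cells by 0.67 untreated (95% interval 0.35 to 0.98) and by 0.68 with dead cells (0.37 to 1.00). Its response was alike within 1.5-fold. Both level intervals lay above 0 and held the 1.5-fold limit of 0.585, so the level was shown neither inside nor outside that limit. Hspa1a, the inducible heat shock protein 70, rose by 4.99 and 5.41 (-0.01 to 0.85), and its near-identical copy Hspa1b may share its signal. Gclc, the first enzyme of glutathione synthesis, differed by -0.23 (-0.68 to 0.21), and Sqstm1, an autophagy adaptor, by -0.27 (-0.58 to 0.03).

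Few antigen presentation genes reached a 2-fold response. Of 16 measured class I and cross-presentation genes 2 fell at least 2-fold, Erap1, which trims peptides, and Rac2, a GTPase of the phagosomal oxidase, and both were alike within 2-fold. All 14 others were alike within 2-fold as well, among them the peptide transporter gene Tap1 (-0.05, -0.34 to 0.24), B2m (-0.02, -0.27 to 0.22) and Sec22b, a trafficking protein of cross-presentation (-0.21, -0.55 to 0.14). Rac2 differed by -0.29 (-0.70 to 0.13) and Psmb9, an immunoproteasome subunit, by -0.17 (-0.43 to 0.10). Of 8 class II genes only Marchf1, the ubiquitin ligase that removes class II molecules from the surface, changed 2-fold, by -2.78 in WT and -2.68 in Clec9a gfp/gfp cells (-0.25 to 0.45). All 8 were alike within 1.5-fold, with Cd74, the invariant chain, at 0.02 (-0.24 to 0.29), H2-Ab1, a class II chain, at 0.06 (-0.21 to 0.33) and H2-DMa, of the peptide loader, at -0.03 (-0.29 to 0.23).

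**Figure D4:**
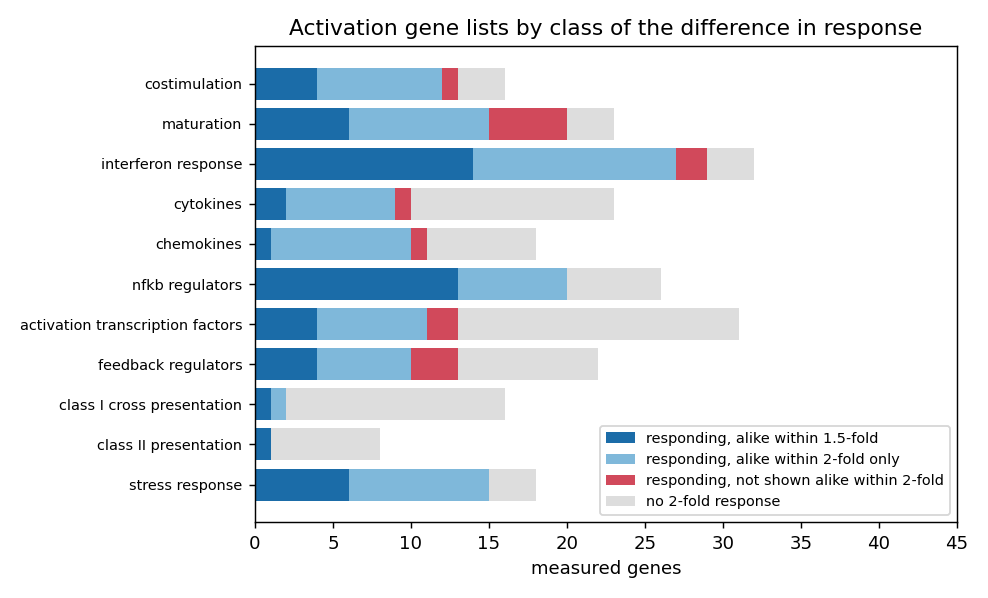
Measured genes of each of the 11 activation lists (horizontal axis, number of genes) by class: responding at least 2-fold and alike within 1.5-fold, alike within 2-fold only or undecided, and not responding 2-fold. Undecided genes number 5 in the maturation list, 3 among feedback regulators and none among NF-kB regulators, stress genes or antigen presentation genes.

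The Syk pathway, through which DNGR-1 and its relatives signal, was read out with 23 of 27 listed genes. Of these 10 responded, 4 up and 6 down, and all 10 were alike within 2-fold and 7 within 1.5-fold. Among the other 13, Clec7a differed and the B cell linker gene Blnk was undecided (-0.21, -1.11 to 0.70). Syk itself changed by -0.07 in WT and -0.31 in Clec9a gfp/gfp cells (difference -0.23, -0.57 to 0.11), and its adaptor Card9 by -0.27 and -0.51 (-0.24, -0.55 to 0.07). Malt1, the protease that links Syk to NF-kB, had the largest rise, 2.74 and 2.56 (-0.18, -0.45 to 0.09), and Clec4n, the gene of Dectin-2, the largest fall, -3.29 and -3.15 (0.14, -0.39 to 0.67). Fgr, a Src family kinase gene, fell in both and differed by -0.56 ± 0.17 (-0.92 to -0.19), alike within 2-fold. It was higher in Clec9a gfp/gfp cells on every array in both states, at 362, 353 and 331 against 210.3, 182 and 150.4 untreated and 132, 131 and 132 against 105, 109.6 and 88.5 with dead cells.

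Clec7a was the gene of this list, and of the whole table, whose response differed. It read 266, 311 and 327 in untreated WT and 525, 449 and 463 in WT cells with dead cells, and 3338, 2314 and 3409 and 1099, 1045 and 1104 in Clec9a gfp/gfp cells. Every Clec9a gfp/gfp array was above every WT array, and the gap was smaller with dead cells. The level rose by 0.64 in WT cells and changed by -1.45 in the others (adjusted p = 0.00358 and 7.12e-06), a difference in response of -2.09 ± 0.21 (-2.55 to -1.63, adjusted p = 0.0219). The genotype difference in level was 3.24 without dead cells, at an adjusted p of 4.04e-06, and 1.15 with them, at 0.0614. In the RefSeq order on chromosome 6, Clec7a is separated from Clec9a, the altered locus, by 1 protein-coding gene, Clec1a, and whether the allele itself bears on Clec7a was not tested. The call was lost without any single array other than untreated Clec9a gfp/gfp replicate 2 or WT dead cell replicate 2: the adjusted p over the 12 fits ran from 0.00111 to 0.132, and the difference from -2.27 to -1.99. Clec9a itself, whose WT level fell by 0.85 while the other genotype stayed near 0, differed by 0.80 ± 0.15 (0.46 to 1.14) without passing (adjusted p = 0.999).

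Of the 10 named rows with the smallest p for the difference, 5 were outside the lists, all at an adjusted p of 0.999. They were Plat, the gene of tissue plasminogen activator, at 0.75, the Notch ligand gene Dll4 at 0.99, the thrombin receptor gene F2r at 1.37, Emc9, of the membrane protein insertion complex, at -0.50, and Bcl2l11, which encodes the death inducer BIM, at -0.74. Bcl2l11 read 369, 396 and 349 in untreated WT, 664, 644 and 485 in untreated Clec9a gfp/gfp cells, and 4751, 4279 and 4864 and 4307, 4284 and 4497 with dead cells. As for Cd274, its untreated arrays lay apart by genotype and its treated arrays overlapped.

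The difference in response is the genotype difference with dead cells less that without, and both are given side by side. Of the 147 responding activation genes 131 rose, whereas 4456 of the 5282 responding rows fell. The shares in this paragraph are therefore not like for like, and none was taken over rising rows alone. Untreated, the 95% interval of the genotype difference lay above 0 for 27 and below 0 for 5 of the 147 genes, against 3.96% and 0.852% of all responding rows. With dead cells it lay above 0 for 8 and below 0 for 1, against 2.65% and 3.69%. A level was counted as within 1.5-fold when its 95% interval, not adjusted over rows, lay inside the limits. By this rule the untreated levels of 95 of the 147 genes lay within 1.5-fold, against 4262 of the 5282 responding rows (80.7%). With dead cells 116 of the 147 did, against 4060 of the 5282 (76.9%). At an adjusted p under 0.05, 0.0301% of rows passed untreated, with Cd274, Bhlhe40 and Csf2rb among the activation genes (adjusted p = 0.0121, 0.0124 and 0.021), and 0.0043% with dead cells, where Clec9a was the row.

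For the 15 undecided genes the untreated level was higher in Clec9a gfp/gfp cells in 13, as it was in 102 of all 147 responding activation genes (79 with dead cells). Over all 23238 rows, responding or not, it was higher in 11870 untreated and in 10875 with dead cells. Most of the 147 genes rose with dead cells, so all rows are not a like base for these counts. The untreated difference is 1 term of the difference in response, which was below 0 in 13 of the 15. None of the 15 had the unadjusted 95% interval of the untreated difference inside 1.5-fold, and with dead cells 5 did. The 15 were picked by the likeness test on the same fit, which genes with wide intervals fail. These counts are therefore no separate evidence about their levels. Cd274 differed by 0.87 untreated (0.67 to 1.07) and by 0.05 with dead cells (-0.15 to 0.25), Bhlhe40 by 0.99 (0.75 to 1.22) and 0.09 (-0.14 to 0.33), and Ccr7 by 0.63 (0.22 to 1.03) and 0.03 (-0.38 to 0.43). These 3 were the undecided genes whose difference in response had a 95% interval wholly below 0. The other 12 had intervals that held 0.

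**Figure D5:**
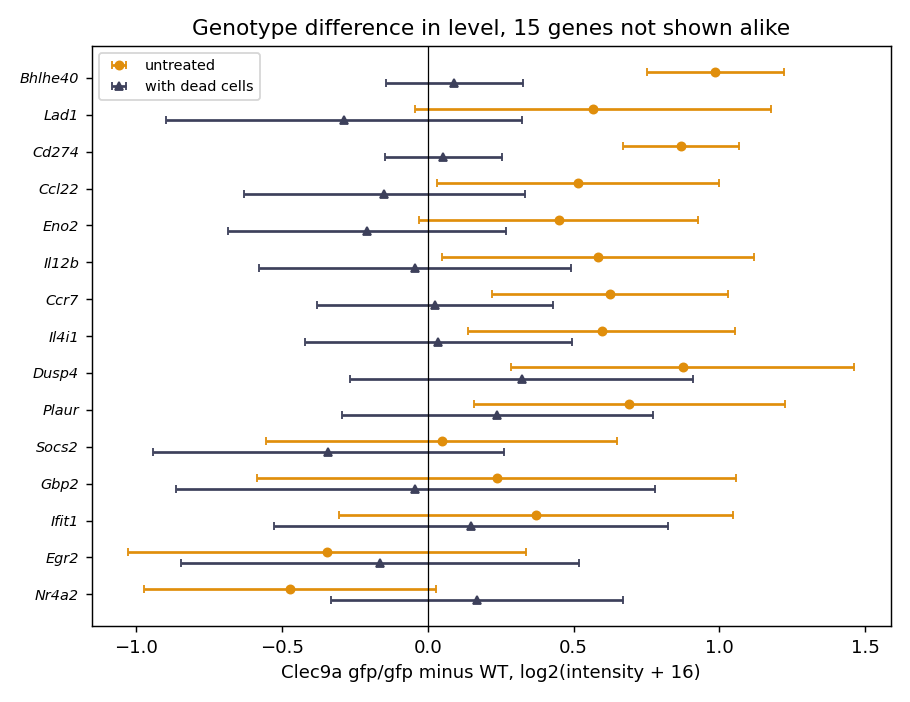
Genotype difference in level (Clec9a gfp/gfp minus WT, log2 scale) of the 15 undecided genes, untreated (circles) and with dead cells (triangles), with 95% intervals. Untreated estimates lie above 0 for 13 genes, while every interval with dead cells holds 0.

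The precision of the difference varied between genes, and its half-width is itself part of the likeness test. The 95% interval of the difference had a median half-width of 0.32 for genes alike within 1.5-fold, 0.48 for those alike within 2-fold only and 0.75 for undecided genes. Cd274 and Bhlhe40 were undecided with half-widths of 0.28 and 0.33, and Csf2rb missed the 1.5-fold limit with 0.23. Over the table, the median half-width was 0.73 in the dimmest 25% of rows and 0.35 in the brightest 25%, where 57.6% and 97.1% of rows were alike within 2-fold. Of the 132 genes called alike, 125 had the 95% interval inside 2-fold, and for Pdcd1lg2, Tnfrsf9, Gbp3, Il1rn, Lta, Cxcl10 and Cxcl11 it reached past the limit. A set of 118 of the 132 was alike in each of the 12 fits that leave out 1 array. The 14 that were not are Ccl2, Cish, Cxcl2, Cxcl10, Cxcl11, Gbp3, Ifit2, Il1rn, Lta, Pdcd1lg2, Rtp4, Tnf, Tnfaip2 and Tnfrsf9.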

How the data were processed

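Column-purified, DNase-treated RNA of sorted dendritic cells, depleted of ribosomal RNA and biotin-labelled per the labels' protocols, was measured on 12 whole-transcript arrays, 3 per group, with groups taken from the labels. The deposited values are a linear intensity per row and array, as the authors left them; per the submitters' processing notes the build was mm8. How the intensities were background-corrected, summarised and normalized, and with which software, is not given in the sources used here. Their scale was read from the values. Of 23238 rows, 14939 had 1 gene symbol (14884 matched by gene ID to RefSeq, GRCm38.p6), 989 several and 7310 none in the platform's gene table. The row with the highest mean stood for a gene with several.

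Values were converted to log2(intensity + 16), which understates changes of dim genes. No row was filtered. A single limma model (version 3.58.1, lmFit and eBayes, R 4.3.3) gave each group a mean over all 12 arrays, with Benjamini-Hochberg adjustment over all rows. Likeness was the larger of both one-sided moderated p-values against the limits; limits of 2-fold and 1.5-fold were used, and 50% and 80% of the WT response. Precision is limited by the number of arrays, which carry no read depth.

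The genes, lists and tests were chosen with earlier results of these data known. Named by rule were Clec9a, the called rows, the 10 named rows with the smallest p for the difference, and in each list the 2 largest responses, the 2 smallest p-values and the 2 largest differences among genes not alike within 2-fold; any other list member could be named. Alternatives were plain log2, other pseudocounts, other scalings, row filters, other variance models, a replicate block, each array left out and other limits.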

Additional observations from a re-analysis of the deposited data

Results flagged for a closer look

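Clec7a, the gene of Dectin-1, was the row whose responses differed between the genotypes by a test of the difference itself, at -2.09 on the log2 scale (-2.55 to -1.63, limma adjusted p = 0.0219). It rose by 0.64 in WT cells and changed by -1.45 in Clec9a gfp/gfp cells, and in both genotypes the 3 arrays with dead cells lay apart from the 3 untreated ones. The call was lost in 10 of the 12 fits that leave out 1 array (adjusted p up to 0.132), with a pseudocount of 1 (0.0639) and with the replicate block (0.0933), and the direction was the same in all of them.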

How the results depend on the processing

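The number of activation genes alike within 2-fold, 132 as reported, ran from 114 (plain log2 or a pseudocount of 1) to 147 (a limit of 3-fold), and from 124 to 133 when single arrays were left out. The number alike within 1.5-fold, 56 as reported, was 99 with a pseudocount of 64, 0 at the narrower limit tried, and 34 to 58 with single arrays left out, with 36 without untreated Clec9a gfp/gfp replicate 1 or WT dead cell replicate 2 and 34 without untreated WT replicate 1. The number keeping over 50% of the WT response, 143, was 140 to 145 with single arrays left out and 13 at a limit of 80%. Rows called for a difference, 1 as reported, numbered 2 with plain log2, with a pseudocount of 64 and with trended eBayes, and 0 with a pseudocount of 1 (996 at an unadjusted p under 0.05 in limma). With single arrays left out they ran from 0 to 2 (774 to 1337 unadjusted). Clec7a kept its direction throughout, and its call was lost with a pseudocount of 1 (adjusted p = 0.0639). Csf2rb passed with trended eBayes (adjusted p = 0.0323) and Clec9a with a pseudocount of 64 (0.00807). Of the 132 genes 109 were alike in all 23 alternatives at the same limit, and of the 15 undecided genes Lad1 and Nr4a2 were alike in none.

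Groups share replicate numbers, but deviations of same-numbered samples correlated at -0.164 to 0.133 (median 0.00197), against -0.135 to 0.176 for other pairs. Of the 12 arrays, 3 correlated best with their own number. No pairing by number was seen, but with 3 arrays per group this cannot exclude that same-numbered samples share a culture or a day. With the replicate block 0 rows were called for a difference (939 at an unadjusted p under 0.05 in limma; Clec7a -2.09, adjusted p = 0.0933), 132 genes were alike within 2-fold, 50 within 1.5-fold, and 143 kept over 50%.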
